A study of Rattus norvegicus with 44 samples.

Results

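The genes described here are 10 that mark the oocyte of the ovary: Zp1, Zp2 and Zp3 of the zona pellucida, the secreted factors Gdf9 and Bmp15, the nuclear proteins Dppa3 and H1f8, the Bcl2 family gene Bcl2l10, and the transcription factor genes Figla and Nobox. They were chosen by name. Of the 10, 7 were measured, by 11 probe sets that carry a single gene symbol, out of 15097 such probe sets, which cover 14324 genes, and 27342 in all. Dppa3 has 5 probe sets and the other 6 genes have 1 each, and the brightest probe set of a gene stood for it. Zp2, Figla and Nobox are not listed in the probe annotation used and were not analysed here.

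The RNA came from whole ovaries of 4-day-old female Sprague-Dawley rats, in which most follicles are primordial, kept in organ culture for 48 h. The larger set of 38 arrays held 14 untreated controls (Control) and 24 treated samples, 3 per protein, with KITLG, LIF, GDNF, PDGFab, AMH, BMP4, FGF7 or FGF2 added at 50 ng/ml. The labels give 3 GDNF samples, whereas the study's text counts fewer, and the labels were followed, so each GDNF value rests on that count. A second set of 6 arrays, preprocessed apart, held 3 samples with CTGF at 50 ng/ml and 3 controls of its own. A sample is a pool of the 2 to 3 ovaries cultured in 1 well, which came from littermates, and not 1 animal. All groups share the strain, age and culture, and the growth factors were proteins of rat, human or mouse. The labels do not say which controls were cultured on the same day as which treatment, so that culture day and treatment cannot be told apart, and p-values measure the spread between these pools.

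A primordial follicle is an oocyte held in meiotic arrest and enclosed by flat pregranulosa cells. When it is recruited to grow, the oocyte enlarges, builds its zona pellucida, a coat of glycoproteins, and secretes GDF9 and BMP15, ligands of the TGF-beta family that act on granulosa cells. FIGLA binds E-boxes in the promoters of zona genes, and NOBOX is a homeobox factor needed for the expression of Gdf9 and other oocyte genes. DPPA3 (also called Stella) is a maternal protein that protects the methylation of DNA in the early embryo, H1F8 is the linker histone of the oocyte, and BCL2L10 is a member of the BCL2 family that is abundant in oocytes.

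The stretches of genome just upstream of the genes are given because the genes were compared for how they vary together. RefSeq starts on the GRCr8 assembly were found for 6 of the 7 measured genes, all but Bcl2l10, and the 250 bases before each start were searched on both strands for CANNTG, the letters of an E-box, and for TAATTG and TAATTA, which NOBOX can bind. The 4 stretches that hold CACCTG, 1 form of CANNTG, on either strand are printed 5′ to 3′ in the direction of the gene, with each match to CANNTG in capitals. They are chr1:216992149-216992398 on the minus strand for Zp1, chr12:26334127-26334376 on the minus strand for Zp3, chr4:150665477-150665726 on the plus strand for H1f8 and chr4:157523176-157523425 on the plus strand for Dppa3.
Zp1: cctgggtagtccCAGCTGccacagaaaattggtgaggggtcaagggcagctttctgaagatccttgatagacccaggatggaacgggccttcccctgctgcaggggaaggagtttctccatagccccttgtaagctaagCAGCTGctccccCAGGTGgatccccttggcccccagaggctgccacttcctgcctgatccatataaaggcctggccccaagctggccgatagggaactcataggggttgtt
Zp3: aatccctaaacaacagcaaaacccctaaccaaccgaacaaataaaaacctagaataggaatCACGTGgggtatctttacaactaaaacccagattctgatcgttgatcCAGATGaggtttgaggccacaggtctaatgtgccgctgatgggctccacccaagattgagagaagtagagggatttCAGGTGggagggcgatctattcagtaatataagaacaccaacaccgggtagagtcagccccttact
H1f8: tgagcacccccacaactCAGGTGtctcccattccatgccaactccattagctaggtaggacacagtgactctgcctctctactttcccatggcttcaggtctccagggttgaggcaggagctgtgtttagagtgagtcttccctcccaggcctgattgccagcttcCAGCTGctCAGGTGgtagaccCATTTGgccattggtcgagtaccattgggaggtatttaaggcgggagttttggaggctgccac
Dppa3: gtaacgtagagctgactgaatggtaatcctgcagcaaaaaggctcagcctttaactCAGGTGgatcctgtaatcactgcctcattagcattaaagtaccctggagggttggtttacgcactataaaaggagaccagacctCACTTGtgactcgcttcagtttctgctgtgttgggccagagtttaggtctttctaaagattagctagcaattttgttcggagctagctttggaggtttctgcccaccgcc

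CANNTG was found in 6 of 6 stretches, with 3 matches each in Zp1 and Zp3, 4 in H1f8, 2 in Dppa3 and 1 each in Gdf9 and Bmp15, and it is present in 65.5% of the 33469 RefSeq stretches of the same length. The narrower CACCTG was found in 4 of 6, with 1 match each in Zp1, Zp3 and Dppa3 and 2 in H1f8, against 15.9% of all stretches. Its first base lay 99 bases before the start in Zp1 and 66 bases before the start in Zp3. Neither TAATTG (7.31% of all stretches) nor TAATTA (4.86%) was found in any of the 6, which says only that these letters are not in these windows. A match is a description of the sequence and not of binding.

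Over the 14 controls, 5 of the 7 oocyte genes were among the most variable features of the array. The levels are log2 values from RMA and are not compared between genes, since each gene has its own probes. Zp1, a cross-linking zona protein, had a lowest, median and highest level of 5.10, 8.43 and 9.07 over the 14 controls, a range of 15.6-fold. Zp3, which encodes a main filament protein of the zona, had 10.58, 11.37 and 11.52, a range of 1.91-fold. The spread of the zona genes thus differed, and the SD over the controls was 1.02 for Zp1 and 0.31 for Zp3.

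Gdf9 had a lowest, median and highest control level of 7.99, 10.10 and 10.61, and Bmp15 had 7.94, 9.63 and 10.83. The ranges of these secreted factors were 6.13-fold and 7.37-fold. H1f8 had 5.55, 7.74 and 8.56, a range of 8.07-fold, and Bcl2l10 had 5.72, 7.56 and 9.45, a range of 13.3-fold. Dppa3 was the steadier of the nuclear genes, with 8.29, 8.87 and 9.40, a range of 2.15-fold.

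The SD over the 14 controls was 0.68 for Gdf9, 0.63 for Bmp15, 0.32 for Dppa3, 0.80 for H1f8 and 0.89 for Bcl2l10, while the median SD of all probe sets was 0.20. Only 0.34% of probe sets had a larger SD than Zp1, 0.556% a larger SD than Bcl2l10 and 0.75% a larger SD than H1f8. For Gdf9 and Bmp15 these shares were 1.27% and 1.59%, and for Dppa3 and Zp3 they were 14.5% and 17.5%. Without Controls 1 and 2 the shares were 1.78% for Bcl2l10, 1.82% for H1f8, 3.55% for Zp1, 3.81% for Gdf9, 14.2% for Bmp15, 14.5% for Dppa3 and 24.6% for Zp3, so the place of Bmp15 rested on those arrays. In the CTGF set the 3 controls lay closer together, with an SD of 0.13 to 0.18 for all 7 genes.

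**Figure D1:**
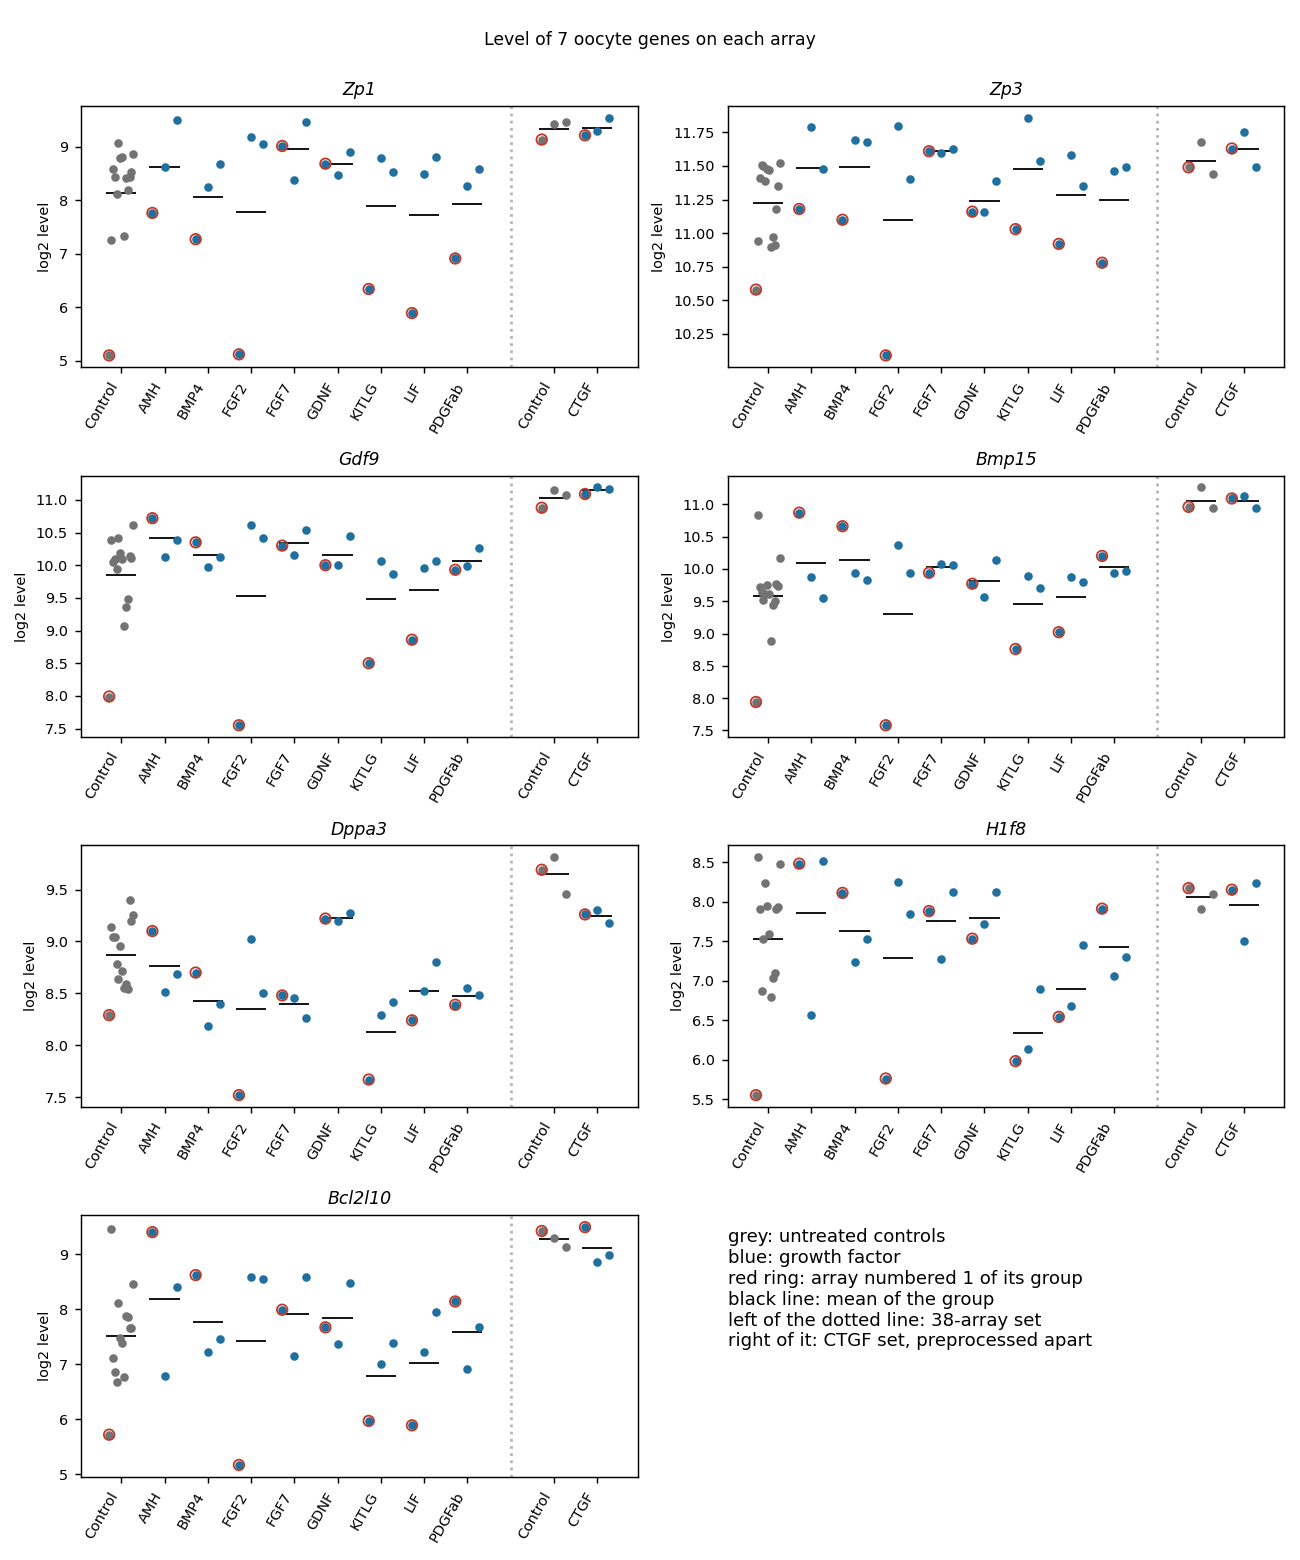
Log2 level (y axis) of each of the 7 measured oocyte genes on every array, by group (x axis); points are arrays, black lines are group means and red rings mark the array numbered 1 in its group. Control 1 and the arrays numbered 1 of FGF2, KITLG and LIF sit below all other arrays of the set for Zp1 and Gdf9, with Zp1 at 5.10, 5.12, 6.34 and 5.89; the CTGF set was preprocessed apart and its levels are not comparable with the rest.

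Single arrays made much of this spread. The deviation of Control 1 from the control median was -3.33 log2 units for Zp1, -2.19 for H1f8, -2.10 for Gdf9, -1.85 for Bcl2l10, -1.68 for Bmp15, -0.79 for Zp3 and -0.58 for Dppa3. All 7 genes had their lowest control value on that array. Without it the ranges over 13 controls were 3.5-fold for Zp1, 2.91-fold for Gdf9, 3.86-fold for Bmp15, 3.42-fold for H1f8 and 6.82-fold for Bcl2l10.

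The arrays numbered 1 of FGF2, KITLG and LIF were low in the same way. By the mean level of the 7 genes, FGF2 1 was the lowest of the 38 arrays, followed by Control 1, KITLG 1 and LIF 1. FGF2 1 deviated from the control median by -3.32 for Zp1, -2.55 for Gdf9, -2.39 for Bcl2l10, -2.05 for Bmp15, -1.99 for H1f8, -1.35 for Dppa3 and -1.28 for Zp3. KITLG 1 deviated by -2.09 for Zp1, -1.76 for H1f8, -1.60 for Gdf9 and -1.2 for Dppa3, and LIF 1 by -2.54, -1.20, -1.24 and -0.63 for the same genes. Zp1 on the other arrays of these treatments was within the range of the controls or above it, at 9.17 and 9.04 with FGF2, 8.79 and 8.52 with KITLG, and 8.49 and 8.80 with LIF. H1f8 remained below the control median there with KITLG (-1.62 and -0.85) and LIF (-1.06 and -0.30), as did Dppa3 with KITLG (-0.58 and -0.45).

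Control 2 showed another pattern, in which the zona genes went one way and the other oocyte genes the other way. Its deviations were -1.17 for Zp1 and -0.43 for Zp3, but 1.89 for Bcl2l10, 1.2 for Bmp15, 0.82 for H1f8, 0.30 for Gdf9 and 0.27 for Dppa3. Bmp15, H1f8 and Bcl2l10 had their highest control value there. AMH 1 had this split for all 7 genes and BMP4 1 for all but Dppa3 (-0.17), with Zp1 at 7.76 and 7.27 and Bmp15 at 10.87 and 10.66, against control medians of 8.43 and 9.63. PDGFab 1 had low Zp1 (6.91) with high Bmp15 (10.20), but Gdf9 (-0.17) and Dppa3 (-0.48) were below the median there too.

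**Figure D2:**
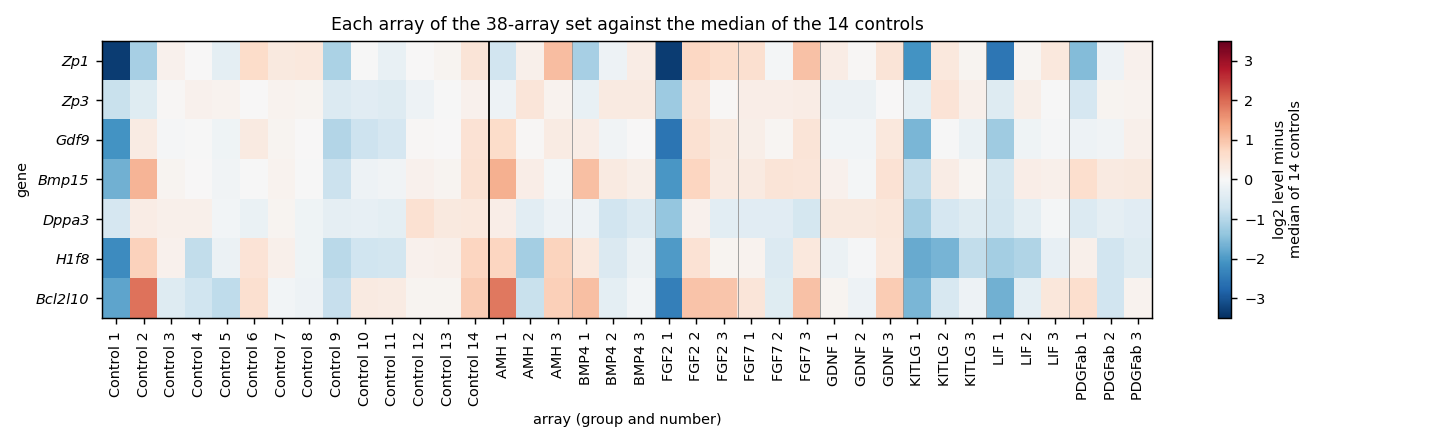
Deviation of the log2 level from the median of the 14 controls (colour scale, blue lower and red higher) for each gene (rows) on each array of the 38-array set (columns). Control 1, FGF2 1, KITLG 1 and LIF 1 are blue for all 7 genes, while Control 2, AMH 1, BMP4 1 and PDGFab 1 are blue for Zp1 and Zp3 and red for Bmp15 and Bcl2l10.

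Other cell markers moved on the same arrays. On Control 1 the mean log2 level of 16 other oocyte genes was -0.87 from the control median and that of 17 germ cell and meiotic genes -0.51, with Npm2 (-2.28), Zp4 (-1.87) and Dazl (-1.03) among the low genes. Mos (0.10) and Pou5f1 (0.01) of the former list and Sycp3 and Hormad2 (both 0.39) of the latter were above the median. Of the 14 pregranulosa markers, with a list mean of -0.46, the genes Nr5a2 (-3.90), Inha (-3.03) and Amh (-2.35), which are expressed in granulosa cells, were the farthest below the median, whereas Wt1 (0.80), Irx3 (0.73) and Gata4 (0.36) were above it. The 6 surface epithelium markers had a list mean of 0.56 and the 7 macrophage markers 0.33. Both lists were split: in the epithelium list Msln was at 1.61 and Krt8 at 1.18, but Epcam and Cdh1 were both at -0.21. In the macrophage list Cd163 (-0.41) and Mrc1 (-0.07) were below the median and the rest above it. Nr5a2 and Inha were also low on FGF2 1 (-4.36 and -3.30), KITLG 1 (-3.32 and -2.79) and LIF 1 (-3.62 and -2.62), where the whole pregranulosa list was at -0.77, -0.31 and -0.44. The 3 endothelium markers had a list mean of -0.40 on Control 1, -0.45 on FGF2 1, -0.68 on KITLG 1 and -0.25 on LIF 1. On FGF2 1, KITLG 1 and LIF 1 the surface epithelium list was at -0.07, 0.57 and 0.41, and the macrophage list at 0.44, 0.82 and 0.59. The marker genes named here were picked after their values were seen. Whether these differences have a part in the levels of the oocyte genes was not tested, and in whole ovaries fewer oocytes and less RNA per oocyte cannot be told apart.

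The median level of all probe sets was 5.93 to 6.01 on the 38 arrays, a range that the normalization itself fixes. The median correlation of an array with the others of this set was 0.976 to 0.993, lowest for Control 2 and FGF2 1 (both 0.976).

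Over the 14 controls the oocyte genes varied together. The Pearson correlation of the log2 levels was above 0 for 21 of 21 pairs, with a median of 0.72, and the median Spearman rho was 0.538. The median absolute correlation of the 7 genes with the 14317 other genes was 0.297. Gdf9 and H1f8 were the closest pair (r = 0.928, rho = 0.912, permutation p = 1e-05 for r and 2e-05 for rho, where 1e-05 is the smallest that 100000 resamples can give, adjusted p = 0.00021 and 0.000315). Bmp15 with H1f8 followed (r = 0.898, rho = 0.824, permutation p = 2e-05 and 0.00049, adjusted p = 0.00021 and 0.00257), and then Gdf9 with Bmp15 (r = 0.895, rho = 0.846, permutation p = 3e-05 and 0.00029, adjusted p = 0.00021 and 0.00203). The p-values are two-sided and adjusted over the 21 pairs, of which 14 passed 0.05 by r and 10 by rho.

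The zona genes Zp1 and Zp3 had r = 0.805 and rho = 0.679 (permutation p = 0.00036 and 0.00926, adjusted p = 0.00151 and 0.0278). The lowest correlation was that of Zp3 with Bcl2l10 (r = 0.136, rho = 0.033, permutation p = 0.641 and 0.916, with adjusted p the same). Dppa3 was closest to Gdf9 by r (0.758) and to Bmp15 by rho (0.908).

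These correlations rested in part on Control 1. With it left out the median r was 0.476, and pairs of Zp1 with Bmp15 and with Bcl2l10 went to -0.0526 and -0.0933. With Controls 1 and 2 both left out the median r was 0.638 and 20 of 21 pairs were above 0, the exception being Zp3 with Bcl2l10 (-0.0578). Leaving out the 2 controls farthest from the median of the member named first in a pair gave r = 0.816 for Gdf9 with H1f8, 0.772 for Bmp15 with H1f8, 0.618 for Gdf9 with Bmp15, and 0.638 for Zp1 with Zp3. For Zp3 with Bmp15 it gave -0.208 and for Zp3 with Bcl2l10 -0.557, so those relations did not hold without Controls 1 and 9. Over the 24 treated arrays of that set, taken as deviations from the mean of their group, the median r of the 21 pairs was 0.767, and 0.672 without the arrays numbered 1.

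**Figure D3:**
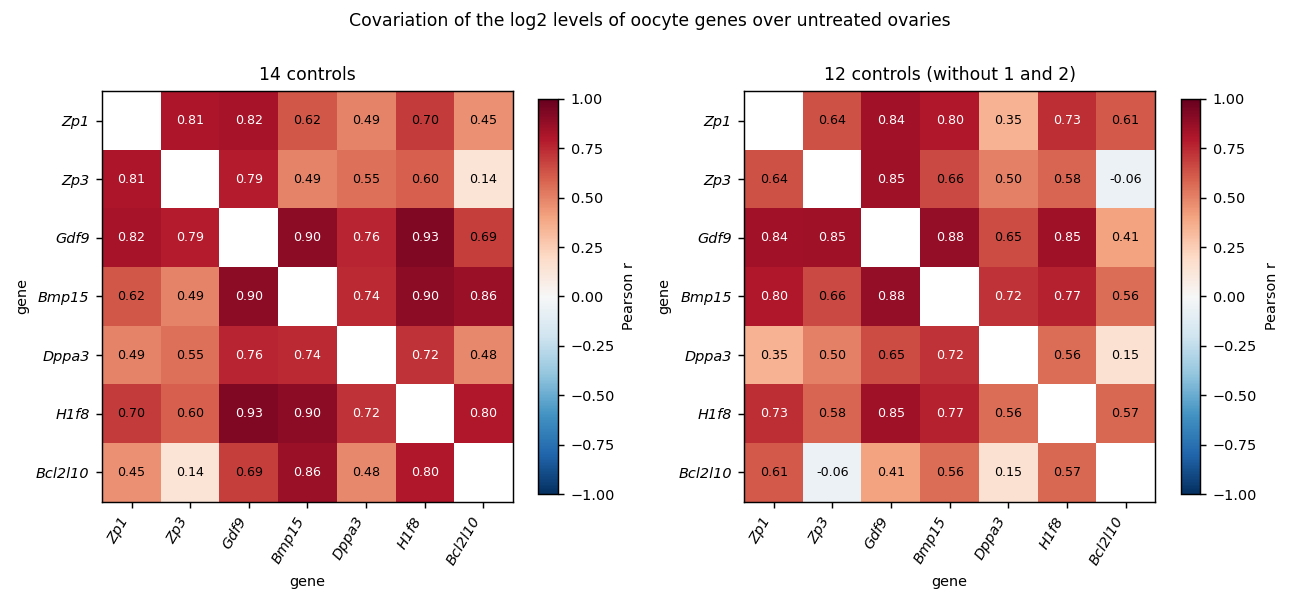
Pearson correlation of log2 levels (colour and printed value) for each pair of oocyte genes over the 14 controls (left) and over 12 controls without numbers 1 and 2 (right). On the left all 21 pairs are above 0, with Zp3 and Bcl2l10 lowest at 0.136; on the right Zp1 with Bmp15 is at 0.803 and Zp3 with Bcl2l10 at -0.0578.

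Among the 14317 other genes with a symbol, those whose control levels were most like the mean of the standardised oocyte genes were Bmi1 (r = 0.96), a Polycomb gene, Adad1 (0.96), an RNA-binding protein of germ cells, and Cnot10 (0.959), a subunit of the CCR4-NOT deadenylase. Pld1 and Ypel5 (both 0.955), the maintenance DNA methyltransferase Dnmt1 (0.953), Parl (0.945), C1h10orf90 (0.944), Lrrc19 (0.943) and Htra4 (0.942) came next. Parl, a protease of the inner mitochondrial membrane, stood at 0.952 over the 12 controls other than 1 and 2, and C1h10orf90 at 0.838. Of the 10 genes, 1 (Parl, rank 2) stayed among the first 10 over those 12 controls, while Cnot10 went to rank 78, Lrrc19 to 64 and C1h10orf90 to 122. Adad1 went to rank 13, Ypel5 to 19, Htra4 to 20, Dnmt1 to 26, Bmi1 to 32 and Pld1 to 34. Which genes came first thus depended on Controls 1 and 2, though all 10 kept an r of 0.838 or more.

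For single oocyte genes, Zp1 was most like Zp4, another zona gene (r = 0.967 over 14 controls, 0.853 over 12), and H1f8 was most like Dnmt1 (0.963 and 0.925). Zp3 was most like Cenpt (0.968 and 0.945), Gdf9 like Prex2 (0.957 and 0.894), Bmp15 like the importin Kpna2 (0.978 and 0.896), Dppa3 like Grtp1 (0.951 and 0.939) and Bcl2l10 like the glypican Gpc3 (0.9 and 0.782). These are descriptions over arrays that share the same outlying samples.

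None of the 8 growth factors changed an oocyte gene at an adjusted p under 0.05 in limma. The 7 genes in the 8 comparisons and in that with CTGF gave 63 differences, of which 0 passed and 6 had an unadjusted p under 0.05 in limma. All 6 also met the size limits of the study criteria with the limma p in place of the study's own test (p at or under 0.05, linear means apart by 10 or more, and their ratio outside 0.83 to 1.2), all were lower in the treated ovaries, and 5 of the 6 were differences of Dppa3. An equal-variance test on log2 values was also run against the same controls, in place of the limma p. The members at these criteria were then 1 with BMP4, 0 with FGF2, 2 with FGF7, 2 with KITLG and 1 with CTGF. On linear values BMP4 had 0. Of the 2 with FGF7, Dppa3 was lower and Zp3 higher. The share of all probe sets at these criteria under the equal-variance test is not given here, so these counts have no background beside them. The shares that follow are from limma. The share of all probe sets called at an adjusted p under 0.05 was 0.0% for AMH, 0.274% for BMP4, 0.94% for FGF2, 0.0805% for FGF7, 1.89% for GDNF, 0.0439% for KITLG, 0.267% for LIF, 0.234% for PDGFab and 0.0% for CTGF. At an unadjusted p under 0.05 it was 5.08%, 8.97%, 12.2%, 7.57%, 17.1%, 8.66%, 7.25%, 9.79% and 3.12% in the same order. The share lower at the study criteria with the limma p was 0.731% for AMH, 2.37% for BMP4, 2.36% for FGF2, 2.12% for FGF7, 4.03% for GDNF, 2.28% for KITLG, 0.969% for LIF, 1.69% for PDGFab and 0.443% for CTGF. The 8 comparisons share their 14 controls.

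**Figure D4:**
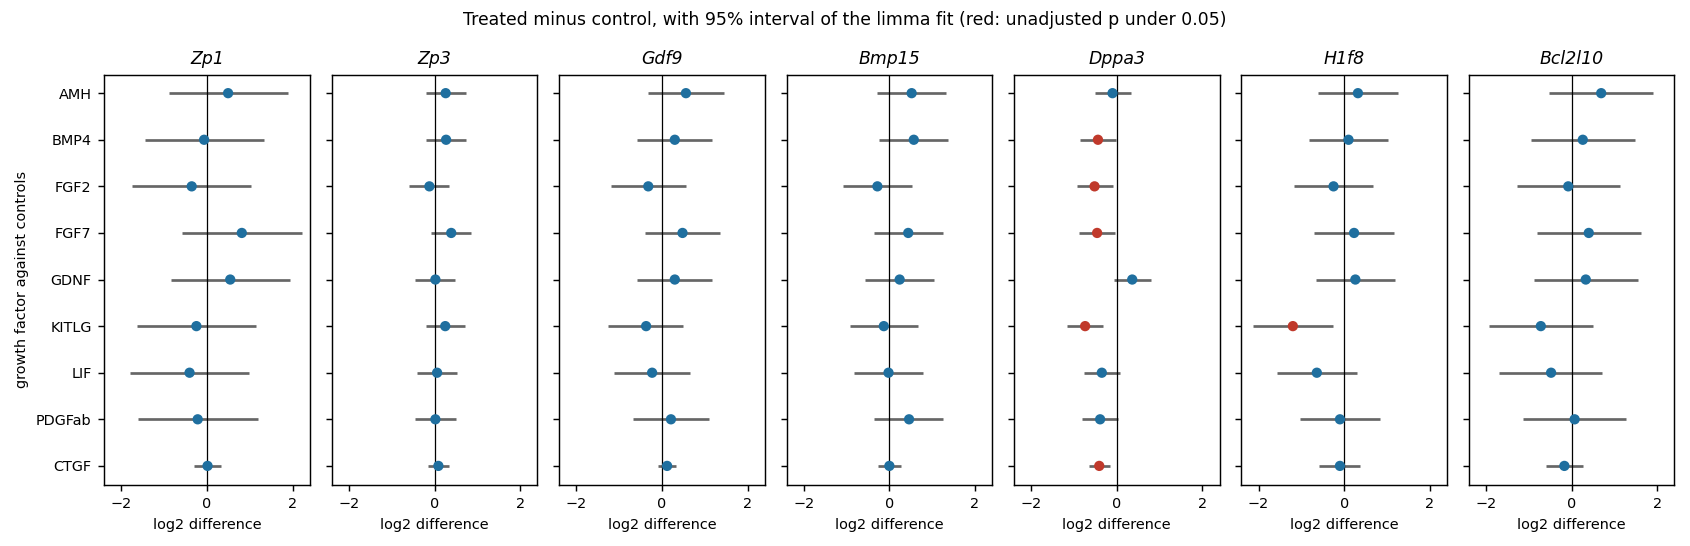
Log2 difference, treated minus control (x axis), of the 7 oocyte genes in each comparison (y axis), with the 95% interval of the limma fit; red points had an unadjusted p under 0.05. The red points are Dppa3 with BMP4, FGF2, FGF7, KITLG and CTGF and H1f8 with KITLG, and all lie left of 0; the CTGF intervals come from a fit of 6 arrays.

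With KITLG, the ligand of the KIT receptor on oocytes, Dppa3 stood at 7.67, 8.29 and 8.42 in the 3 treated samples, against 8.29 to 9.40 in the controls. The treated samples lay below 13 of the 14 controls, and 2 of them below the lowest control, Control 1. The log2 difference was -0.74 (SE 0.21, 95% interval -1.16 to -0.32, adjusted p = 0.173 from limma; exact two-sided permutation test of the 680 splits, p = 0.00294, where the smallest possible is 0.00147). It was -0.56 without all arrays numbered 1.

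H1f8 with KITLG was at 5.98, 6.13 and 6.89, against 5.55 to 8.56 in the controls. The 3 treated samples lay below 11 controls and above Control 1. The log2 difference was -1.2 (SE 0.46, 95% interval -2.13 to -0.27, adjusted p = 0.411 from limma; exact permutation p = 0.0279), and -1.17 without all arrays numbered 1. Bcl2l10 had a difference of -0.72 (interval -1.93 to 0.49), Gdf9 -0.37, Zp1 -0.25, Bmp15 -0.13 and Zp3 0.25, and none had an unadjusted p under 0.05. The paper's list of candidate regulators gives this Bcl2l10 probe set as lower with KIT ligand. That call was not reproduced against the 14 controls here (exact permutation p = 0.219). The median of the 7 differences was -0.37, beside 0.00 for all probe sets. Without KITLG 1 the differences of Zp1, Bmp15 and Gdf9 turned to 0.52, 0.22 and 0.12, that of Bcl2l10 was -0.31, and those of H1f8 and Dppa3 were -1.02 and -0.52.

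With FGF7, a ligand of epithelial FGF receptors, Dppa3 was at 8.48, 8.46 and 8.26, below 13 of the 14 controls in all 3 samples. Its log2 difference was -0.46 (SE 0.21, interval -0.89 to -0.04, adjusted p = 0.606 from limma; exact permutation p = 0.0279). The other 6 oocyte genes had differences above 0, from 0.23 for H1f8 to 0.81 for Zp1. Zp3 was at 11.61, 11.60 and 11.63, above the highest control (11.52) in all 3 samples. It was the single member of the 7 with all treated samples above all controls, while 0.406% of all probe sets had this in that comparison, and its difference of 0.39 had an interval of -0.08 to 0.86 (adjusted p = 0.743 from limma; exact permutation p = 0.0338). With Dppa3, Zp3 made up the 2 genes at the study criteria with FGF7 under the equal-variance test against the 14 controls. The paper's own list for FGF7 holds neither Zp3 nor Dppa3, so these calls are not those of the study.

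With BMP4, a ligand of the BMP receptors, Dppa3 was at 8.70, 8.19 and 8.40, and 9 controls lay above all 3 samples. The difference was -0.44 (SE 0.21, interval -0.86 to -0.02, adjusted p = 0.531 from limma; exact permutation p = 0.0485). Bmp15 (0.57), Gdf9 (0.30), Zp3 (0.27), Bcl2l10 (0.26) and H1f8 (0.10) were above 0 and Zp1 (-0.07) below it, and the intervals of these 6 held 0.

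With FGF2, all 7 differences were below 0, and this rested on FGF2 1. Dppa3 was at 7.52, 9.02 and 8.50, with 1 sample below all controls and 1 above the control mean. Its difference was -0.52 (SE 0.21, interval -0.94 to -0.10, adjusted p = 0.265 from limma; exact permutation p = 0.0676). It was -0.11 without FGF2 1, and -0.86 without FGF2 2, with an adjusted p of 0.0468. For the other genes the difference turned above 0 without FGF2 1, from -0.36 to 0.97 for Zp1, from -0.32 to 0.67 for Gdf9, from -0.28 to 0.58 for Bmp15, from -0.25 to 0.52 for H1f8, from -0.12 to 0.38 for Zp3 and from -0.08 to 1.05 for Bcl2l10.

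LIF gave a median difference of -0.35, beside -0.03 for all probe sets. H1f8 was at 6.54, 6.68 and 7.45, a difference of -0.64 (interval -1.57 to 0.29), and Dppa3 at 8.24, 8.52 and 8.80, a difference of -0.35 (interval -0.77 to 0.07). All 3 samples lay below the control mean for both genes, and 1 Dppa3 sample below the lowest control. Zp1 went from -0.41 to 0.51, and Gdf9 from -0.23 to 0.15, when LIF 1 was left out.

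AMH, an inhibitor of follicle recruitment, gave 6 differences above 0, with a median of 0.49, the highest of the 9 comparisons. Bcl2l10 (0.69, interval -0.52 to 1.90), Gdf9 (0.56, interval -0.32 to 1.44) and Bmp15 (0.52, interval -0.29 to 1.32) led, and every adjusted p was 0.9997. Gdf9 was at 10.72, 10.13 and 10.39, above the control mean of 9.85 in all 3 samples. Without all arrays numbered 1 the differences of Bmp15 and Bcl2l10 were 0.01 and -0.05.

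GDNF gave 7 of 7 differences above 0, with a median of 0.30, beside 0.04 for all probe sets. Dppa3 was at 9.22, 9.20 and 9.27, a narrow range above 12 of the 14 controls, and its difference was 0.36 (SE 0.21, interval -0.06 to 0.79, adjusted p = 0.378 from limma). Zp1 (0.54), Bcl2l10 (0.33), Gdf9 (0.30), H1f8 (0.26), Bmp15 (0.24) and Zp3 (0.02) had intervals that held 0. Without all arrays numbered 1 and Control 2, the GDNF difference was -0.02 for Zp3 and 0.22 for Zp1. Those of the other genes stayed above 0.

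PDGFab gave differences on both sides of 0, with a median of 0.02. Dppa3 was at 8.39, 8.55 and 8.48, below 12 controls, a difference of -0.39 (interval -0.81 to 0.03, adjusted p = 0.56 from limma), while Bmp15 was 0.46 above the controls (interval -0.35 to 1.26).

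Dppa3 thus had 7 of 8 mean differences below 0 in the set that shares 14 controls. Controls 12, 13 and 14 had the highest Dppa3 levels of the controls (9.40, 9.20 and 9.25). Without them the AMH difference was 0.01, and the other differences below 0 stayed below 0. By mean level the order from the lowest was KITLG (8.12 ± 0.40, SD, n = 3), FGF2 (8.34 ± 0.76), FGF7 (8.40 ± 0.12), BMP4 (8.43 ± 0.26), PDGFab (8.48 ± 0.08), LIF (8.52 ± 0.28), AMH (8.77 ± 0.30), Control (8.87 ± 0.32, n = 14) and GDNF (9.23 ± 0.03). No neighbours in this order differed at an adjusted p under 0.05. The differences between treatments were tested directly in 28 contrasts, which gave 196 member contrasts. Of these, 1 passed an adjusted p under 0.05: Dppa3 was 1.11 log2 units higher with GDNF than with KITLG (SE 0.27, interval 0.57 to 1.65, adjusted p = 0.0232 from limma), where 2.5% of all probe sets passed, and 0.621% over the 28 contrasts together. That call was absent without any of the 3 GDNF samples, without KITLG 1 and without all arrays numbered 1.

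Dppa3 was next farthest between GDNF and FGF2 (FGF2 minus GDNF -0.89, adjusted p = 0.0575), FGF7 (-0.83, adjusted p = 0.0922) and BMP4 (-0.80, adjusted p = 0.0923 from limma). In the F-test over the 9 groups no member passed (Dppa3 had an adjusted p of 0.0815 from limma), 2.18% of all probe sets did, and Dppa3 had an unadjusted p of 0.00255.

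The 5 probe sets annotated to Dppa3 share an accession and rose and fell together over the 14 controls, with r of 0.943 to 0.996, so they are not separate evidence. Their differences had the same sign in every comparison. They ran from -0.75 to -0.65 with KITLG, from -0.52 to -0.43 with BMP4, from -0.52 to -0.38 with FGF2, from -0.49 to -0.34 with FGF7, from -0.43 to -0.28 with PDGFab, from -0.35 to -0.25 with LIF, from -0.12 to -0.03 with AMH and from 0.32 to 0.36 with GDNF. With the limma p, 5 of 5 met the study criteria with KITLG, BMP4, FGF2 and CTGF, 4 with FGF7 and 1 with PDGFab. Whether near-identical copies of the gene contribute to these probe sets was not tested.

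CTGF, a matricellular protein, was compared within its own set. Dppa3 was at 9.26, 9.30 and 9.18 with CTGF and at 9.69, 9.81 and 9.46 in the 3 controls, so that the groups did not overlap. Dppa3 was the single member with all treated samples below all controls, while 4.54% of all probe sets had this in that comparison. The difference was -0.41 (SE 0.10, interval -0.66 to -0.16, adjusted p = 0.9999 from limma; exact permutation p = 0.1, the smallest that 3 against 3 samples allow). Neither test used the pairing. With the sample number as a block in limma the SE was 0.07 and the adjusted p 0.346. The same-numbered samples, which pair in this set, differed by -0.43, -0.51 and -0.28.

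The other genes lay close to their controls with CTGF: Zp1 0.01 (interval -0.30 to 0.32), Zp3 0.09 (-0.16 to 0.33), Gdf9 0.12 (-0.10 to 0.33), Bmp15 0.00 (-0.27 to 0.26), H1f8 -0.10 (-0.58 to 0.38) and Bcl2l10 -0.17 (-0.59 to 0.26). Gdf9 was at 11.09, 11.19 and 11.17 against 10.88, 11.15 and 11.07, and these ranges overlapped.

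**Figure D5:**
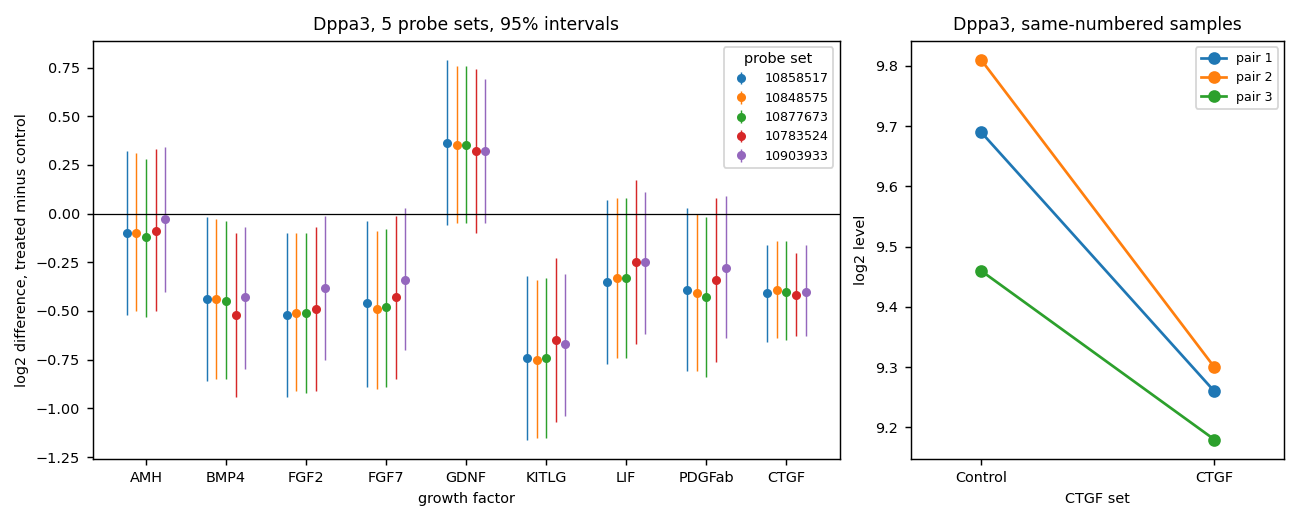
Left, log2 difference of Dppa3 (y axis) in each comparison (x axis) for its 5 probe sets, with 95% limma intervals; right, the log2 level in the 3 same-numbered pairs of the CTGF set. The probe sets of a comparison lie on the same side of 0, lowest with KITLG (-0.75 to -0.65), and all 3 CTGF samples (9.18 to 9.30) are below their controls (9.46 to 9.81).

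The 16 other oocyte genes measured of 32 listed, such as Zp4, Npm2 and Nlrp5, had 0 members past an adjusted p under 0.05 in each of the 9 comparisons in limma, as had the 17 germ cell and meiotic genes of 20 listed. At an unadjusted p under 0.05 the other oocyte genes had 1 member higher and 0 lower with BMP4 and with GDNF, and 1 lower with each of FGF2, FGF7, KITLG, PDGFab and CTGF. The germ cell genes had 4 lower and 1 higher with FGF2 (12.2% of all probe sets passed in that comparison), 2 lower with FGF7, 1 lower with each of AMH, BMP4, KITLG, LIF and CTGF, and 1 higher with GDNF. Their mean deviated by -0.92 on FGF2 1 and by 0.22 and -0.18 on FGF2 2 and 3. The median difference of the other oocyte genes was -0.21 with FGF2, -0.17 with LIF, 0.18 with GDNF, 0.09 with AMH and -0.03 with KITLG. The mean of this list deviated from the control median by -1.2 on FGF2 1 but by 0.37 and 0.08 on FGF2 2 and 3, and by -0.57 on LIF 1 but by -0.08 and 0.04 on LIF 2 and 3. With GDNF it was at 0.01, -0.03 and 0.37. In the lists of other cell types, Pdgfrb, a receptor of mesenchymal cells, was higher with FGF2 (0.59, SE 0.15, adjusted p = 0.0427 from limma) and Wnt4, a ligand of pregranulosa cells, was higher with LIF (0.79, adjusted p = 0.0156 from limma). Wnt4 was 1.21 above the control median on LIF 1, and also above it on FGF2 1 (0.59), KITLG 1 (0.45) and the untreated Control 1 (0.44). Its difference without LIF 1 is not given here.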

How the data were processed

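RNA of 44 whole-ovary cultures was measured on Affymetrix Rat Gene 1.0 ST arrays. The deposited values are log2 levels, which the authors made in Partek by RMA with a GC adjustment, the 38 arrays and the 6 arrays of the CTGF set apart. RMA quantile-normalizes within a set, so levels were not compared between sets. Array number limits the precision. The members and gene lists (other oocyte, germ cell and meiotic, pregranulosa, stroma, surface epithelium, endothelium and macrophage genes) were chosen with earlier results of these data known.

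Of 27342 probe sets, 15097 had 1 symbol, 323 several and 11922 none. The brightest probe set stood for a gene. Each treatment was compared with its controls in limma 3.58.1 (R 4.3.3), with lmFit, eBayes and Benjamini-Hochberg adjustment over all probe sets of the comparison, and by an exact permutation test. Correlations over the 14 controls used 100000 permutations over the 21 pairs of the 7 measured genes, with Python 3.11.15, numpy 2.4.6, pandas 2.3.3 and scipy 1.17.1. Genes named were the members, list genes past the adjusted threshold, and the 10 genes most like the mean of the members and the gene most like each. The fit was tested on simulated data.

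Samples with the same number deviated together in the CTGF set (r = 0.842, 0.623 and 0.647 of their deviations from the group means) and were taken as pairs. The main fit did not use these pairs, and the replicate block did. In the 38-array set same-numbered samples were not pairs (r from -0.555 to 0.74). The deviations of FGF2 1, LIF 1 and KITLG 1 over all probe sets correlated with those of Control 1 (r = 0.74, 0.694 and 0.615). Those of AMH 1 and BMP4 1 correlated with those of Control 2 (r = 0.779 and 0.506). For GDNF 1 and FGF7 1 with Control 1, r was -0.00973 and 0.0874. Whether these arrays share a culture day was not tested. Alternatives were array weights, quantile normalization, a filter on dim probe sets, a mean-variance trend, an equal-variance t-test, a replicate block and leaving out arrays.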

Additional observations from a re-analysis of the deposited data

How the results depend on the processing

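The 63 differences were recomputed under 56 settings, giving 1722 alternative values, of which 4 passed the adjusted threshold, all for Dppa3, and 121 had the other sign, 5 of these with an unadjusted p under 0.05. Settings without all arrays numbered 1 were added after seeing the data. Without them the FGF2 difference of Zp1 was 0.74, and without Control 2 as well it was 0.64, with 0.56 for Gdf9, 0.55 for Bmp15 and 1.07 for Bcl2l10. With array weights 1 member was called with each of BMP4, FGF7 and KITLG, which was Dppa3 (-0.50, -0.45 and -0.59, adjusted p = 0.0291, 0.0444 and 0.0339 from limma), 1 member differed among the 9 groups, and 6 calls were made in the direct contrasts, against 1. Of all 27342 probe sets, that setting called 1249, 1158 and 544 with BMP4, FGF7 and KITLG, against 75, 22 and 12 in the main fit. Its calls over all probe sets among the 9 groups and in the direct contrasts are not given here. Those contrasts gave 3 calls without Controls 12, 13 and 14, 0 without all arrays numbered 1, and 0 without Control 2 as well. Leaving out 1 array gave 0 to 1 members with FGF2 (1 without FGF2 2), 0 to 1 among the 9 groups (1 without FGF2 1, FGF2 2 or Control 1), and 0 to 2 calls in the direct contrasts (0 without GDNF 1, 2 or 3 or KITLG 1, and 2 without FGF2 2, Control 1 or Control 12). The median correlation of the 21 pairs was 0.476 without Control 1 and 0.792 without Control 2. With the replicate block, Dppa3 with CTGF was -0.41 (SE 0.07, adjusted p = 0.346 from limma), and the pairing changed no call of a member in the CTGF set. In the 38-array set same-numbered samples were not pairs, and the block sets treated samples against Controls 1 to 3 alone. It called no member there, but the Zp1 difference was 1.97 with FGF7, against 0.81, and 1.70 with GDNF, against 0.54 (adjusted p = 0.105 and 0.0972 from limma). Probe sets called ranged over the settings from 0 to 10 with AMH, 0 to 1249 with BMP4 (75 as reported), 13 to 391 with FGF2 (257), 0 to 1158 with FGF7 (22), 0 to 5637 with GDNF (517), 0 to 544 with KITLG (12), 19 to 240 with LIF (73) and 0 to 1130 with PDGFab (64). The cause was not tested. With 3 treated pools a group, the 95% intervals of Zp1 and Bcl2l10 span over 2 log2 units in the 38-array set, and differences within those intervals were not detectable there.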
